A study of Mus musculus with 14 samples.

Results

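The genes described here are 9 genes tied to the type 2 immune response: the chitinase-like Chil3 and Chil4, the resistin-like Retnla and Retnlb, the arginase Arg1, the cytokines Il4, Il5 and Il13, and the receptor subunit Il4ra. They were taken by symbol from 19938 genes with a single symbol on the array. Each of the 9 had 1 row in the table, so no choice between rows was needed. Their values are log2 signals from an Affymetrix Mouse Gene ST chip, where each transcript is read by a set of probes spread over its exons.

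There were 14 arrays from 9 mice, all with a 129S7/SvEv and C57/BL6 background. Duodenal tumors came from 6 mice in which both Lrig1 alleles carry CreERT2 (Lrig1-/-). Adjacent normal duodenum came from 5 of those 6 mice, and wildtype duodenum from 3 other mice, age-matched per the labels. Tumor and adjacent tissue carry the same genotype, so their comparison does not measure the loss of Lrig1. Normal samples are labelled as epithelium, and whether tumors and normal samples hold the same tissue layers was not tested. Lrig1 encodes a membrane protein that restrains ErbB receptors.

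In a type 2 response, the kind raised against worms and allergens, epithelial alarmins act on lymphocytes that release IL-4, IL-5 and IL-13. IL-4 and IL-13 signal through receptors that share the subunit encoded by Il4ra and activate the transcription factor STAT6. Macrophages answer with Arg1, Retnla and the chitinase-like Chil3, and goblet cells of the gut answer with Retnlb. IL-5 is the growth factor of eosinophils. Chitinase-like proteins resemble chitinases and bind sugar polymers, but do not cut chitin.

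Chil3 and Chil4 are neighbours on chromosome 3 with no annotated protein-coding gene between them, and they are close copies. A stretch near the annotated start of each gene is shown because both genes rose in tumors. It runs 5′ to 3′ from a STAT-type match (TTCNNNGAA, searched on both strands) to a TATA box match (TATAAA), both in capitals. Sequences are RefSeq's on GRCm38.p6, and windows were found for 7 of the 9 genes, 8 windows in all. No window was found for Retnlb and Arg1, which both rose against adjacent tissue. The Chil4 stretch is chr3:106219505-106219679 and the Chil3 stretch is chr3:106167562-106167736, both on the minus strand.

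Chil4: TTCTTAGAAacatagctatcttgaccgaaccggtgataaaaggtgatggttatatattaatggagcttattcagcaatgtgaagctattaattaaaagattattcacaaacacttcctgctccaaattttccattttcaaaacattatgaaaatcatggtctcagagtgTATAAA
Chil3: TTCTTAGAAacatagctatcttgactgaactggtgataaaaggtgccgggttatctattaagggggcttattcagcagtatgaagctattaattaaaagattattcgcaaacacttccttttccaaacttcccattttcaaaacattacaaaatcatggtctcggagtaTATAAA

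Each stretch is 175 bases long. Of 174 aligned positions 157 were identical (90.2%) and 17 differed, and the STAT-type match was the same in both. In Chil4 the stretch begins 200 bases before the annotated start and its TATAAA begins 31 bases before it. In Chil3 the stretch begins 172 bases before the annotated start, and its TATAAA, beginning 3 bases before, lies across that start. Among all 32851 windows of 300 bases, 8.30% held TTCNNNGAA and 13.6% held TATAAA. Retnla, which did not pass the test in any comparison, is shown beside them for its STAT6-type match with a longer spacer (TTCNNNNGAA, in 6.95% of windows), on the plus strand at chr16:48842464-48842584.

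Retnla: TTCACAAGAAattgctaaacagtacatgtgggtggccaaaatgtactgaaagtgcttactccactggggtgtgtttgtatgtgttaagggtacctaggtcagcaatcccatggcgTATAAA

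The capitals of Retnla mark that match, which begins 145 bases before the start, and its TATA box. Il4, which did not pass either, had a TTCNNNGAA match in one of its windows and a TTCNNNNGAA match in the other, while Il4ra, which rose, and Il5 had 0 matches to these motifs. A match is a run of letters and not a binding site that was measured here.

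1 normal array stood apart from its group. Wildtype replicate 1 had a mean of 13.4 over 8 gastric pit cell genes, inside the span of the tumors (12.0 to 13.8), whereas its 2 group mates had 6.81 and 7.22. Its mast cell list mean was 7.86, within the tumors' 7.62 to 8.38. Pancreatic acinar genes averaged 13.3 to 14.1 in 4 non-tumor arrays, wildtype replicates 1 and 3 and adjacent replicates 1 and 2, against 6.78 to 6.96 in the other 4 and 6.85 to 9.60 in tumors. Lrig1 signal was 7.65 to 8.54 in tumors, 6.95 to 7.40 in adjacent tissue and 8.22 to 9.54 in wildtype. Of 12 enterocyte genes the mean was 10.7 to 11.2 in tumors, 12.9 to 13.6 in adjacent tissue and 12.3 to 13.5 in wildtype. In tumors 11 of the 12 fell against adjacent tissue, where 12.6% of all genes fell. Lactase (Lct) was at 8.14 ± 0.46 (SD, n = 6) in tumors and 13.03 ± 0.57 (n = 5) in adjacent tissue. In wildtype Lct was at 11.66 ± 1.88 (n = 3). Results against wildtype are given below with and without wildtype replicate 1.

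Compared with adjacent duodenum, tumors had far more Chil4, more Retnlb and Chil3, and slightly more Arg1 and Il4ra, while the cytokine genes Il4, Il5 and Il13 and the resistin-like Retnla did not pass the test. Chil4 was 58.1-fold higher on the scale of the array signal, Retnlb 8.73-fold, Chil3 3.28-fold, Arg1 1.71-fold and Il4ra 1.61-fold. In adjacent tissue the median percentile among genes was 6.5 for Chil4, 10.2 for Chil3, 16.8 for Retnlb and 20.3 for Arg1. In tumors that of Arg1 was 28.5. No detection call came with these low signals, so the sizes of these folds are uncertain. Of the 9 genes 5 rose and 0 fell at an adjusted p below 0.05 (limma, with the mouse as a random block and Benjamini-Hochberg adjustment over all genes). Across all 19938 genes 31.7% passed in either direction, 19.1% rose and 12.6% fell. At an unadjusted p below 0.05 the same 5 genes passed, against 39.4% of all genes. The groups did not overlap for 4 of the 9 genes, against 17.2% of all genes. The median difference of the 9 genes was 0.69 on the log2 scale, beside 0.04 over all genes. The 9 genes were chosen with results of these arrays known, so their count is a description. With only the 2 adjacent and 2 wildtype arrays that carried acinar transcripts as normal tissue, the calls on Retnlb (2.49, adjusted p = 0.237), Chil3 (1.48, adjusted p = 0.238) and Arg1 (0.74, adjusted p = 0.187) were lost.

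**Figure D1:**
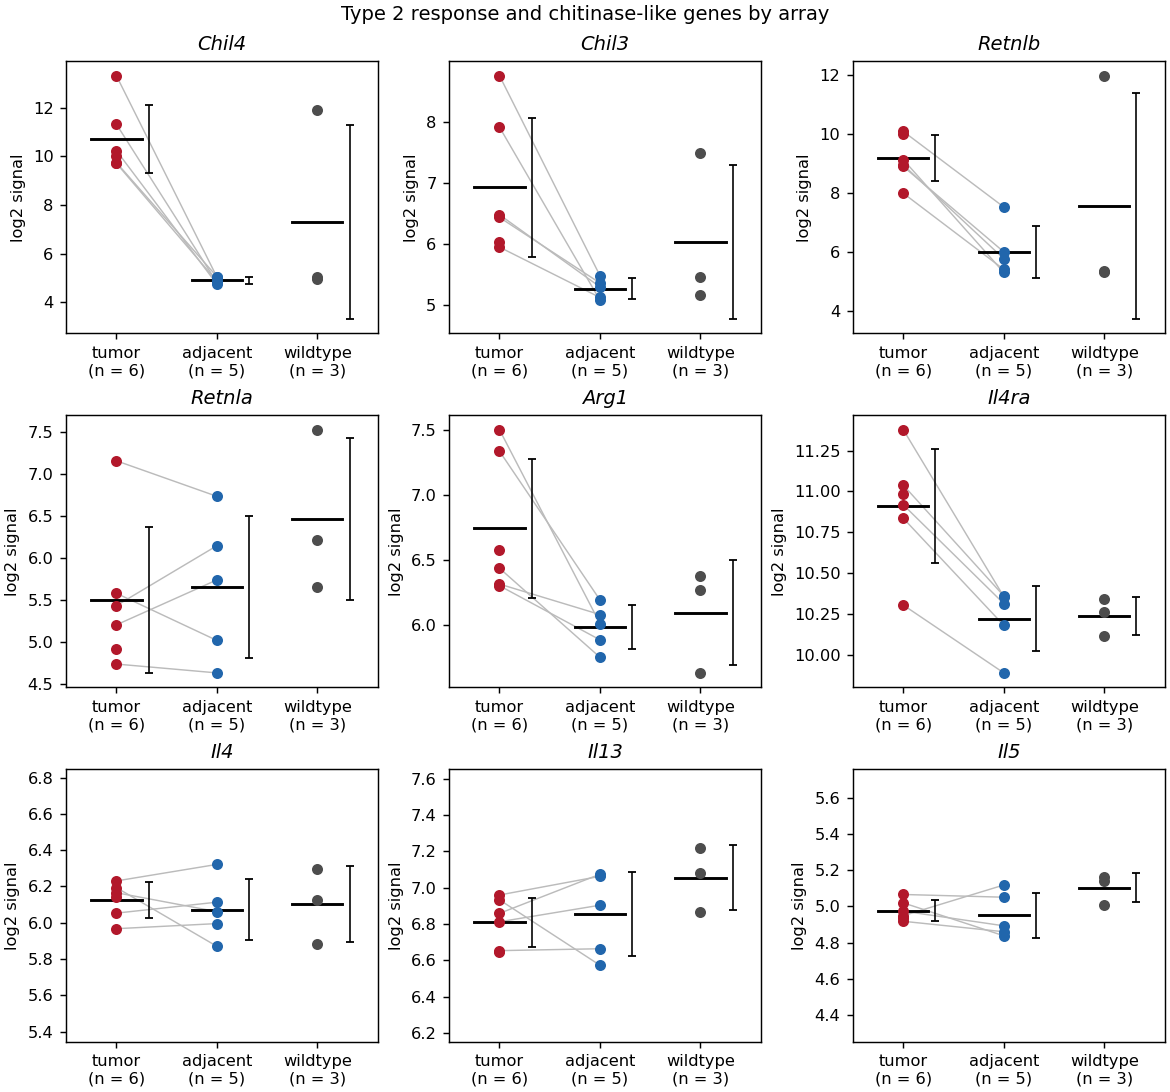
Log2 signal of each gene (vertical axes, each with its own scale) on every array of tumor (n = 6), adjacent (n = 5) and wildtype (n = 3) duodenum. Points are arrays, grey lines join tissues of the same mouse, black bars are means and whiskers are SDs. Chil4 lies at 9.71 or more in every tumor and at 5.06 or less in every adjacent sample, and wildtype replicate 1 lies at 11.88.

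Chil4 signal in tumors had a lowest value of 9.71, a median of 10.11 and a highest value of 13.31. In adjacent replicates 1 to 5 it was 4.75, 5.06, 4.82, 5.04 and 4.87, and in wildtype replicates 1 to 3 it was 11.88, 4.95 and 5.05. Every tumor lay above every adjacent sample by at least 4.65, while 1 wildtype array lay among the tumors. The log2 difference between tumor and adjacent tissue was 5.86 ± 0.86 (SE, adjusted p = 0.000112), and the 5 pairs ranged from 4.68 to 8.27. It was the ninth largest increase among all genes in size. Within mice whose ID begins with F the difference was 5.09, and within those beginning with B it was 6.54. The labels do not explain that letter. In RNA of mixed cells, a difference in the number of cells of a type and one in RNA per cell cannot be told apart.

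Chil3 differed in the same direction by less. Its lowest tumor value was 5.95, the median 6.46 and the highest 8.75. Adjacent replicates 1 to 5 had 5.37, 5.30, 5.09, 5.49 and 5.13, and wildtype replicates 1 to 3 had 7.48, 5.46 and 5.18. Tumors and adjacent samples did not overlap, though the nearest arrays were only 0.47 apart. Chil3 rose by 1.71 ± 0.43 (SE, adjusted p = 0.00604) and was higher in 5 of 5 pairs, by 0.82 to 3.26. Within mouse IDs beginning with F the difference was 1.01, and within those beginning with B it was 2.30, and both passed (adjusted p = 0.0145 and 0.00559). Tumor replicates 5 and 4 were the highest for both genes, at 8.75 and 7.91 for Chil3 and at 13.31 and 11.31 for Chil4, and tumor replicate 6 was the lowest for both. The stretches printed above differ at few positions, and the transcripts were not aligned here. How far probes of one gene read the other was not tested, so the Chil3 signal cannot be assigned to Chil3 alone.

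**Figure D2:**
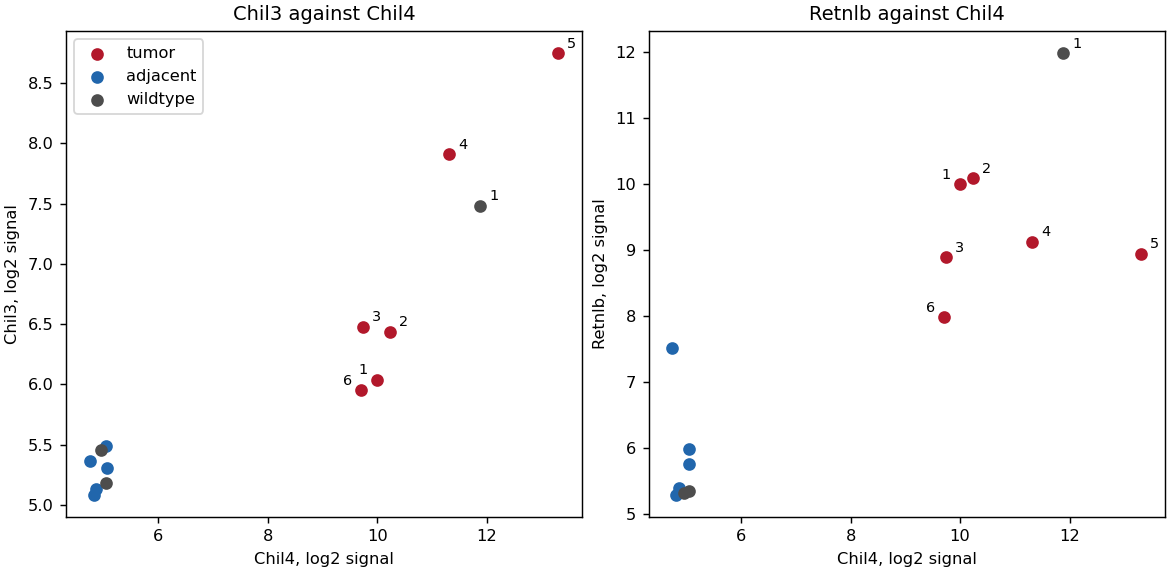
Log2 signal of Chil3 (left) and Retnlb (right) against Chil4 on the 14 arrays, coloured by tissue, with replicate numbers beside tumors and wildtype replicate 1. Tumor replicate 5 has the highest Chil4 (13.31) and Chil3 (8.75), whereas Retnlb is 8.95 in that array and highest, at 11.98, in wildtype replicate 1.

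Retnlb, a goblet cell product in the mouse colon, had a lowest value of 7.99, a median of 9.04 and a highest value of 10.09 in tumors. Adjacent replicates 1 to 5 had 7.52, 5.99, 5.29, 5.76 and 5.397. Wildtype replicates 1 to 3 had 11.98, 5.32 and 5.35, so the highest array of all was a wildtype one. Between tumor and adjacent tissue the groups did not overlap, and Retnlb rose by 3.13 ± 0.78 (SE, adjusted p = 0.00625), by 2.57 to 3.83 in the 5 pairs. The order of tumors differed from that of Chil4: tumor replicates 2 and 1 led, at 10.09 and 9.995, and tumor replicate 5 had 8.95. Adjacent replicate 1, the highest adjacent array for Retnlb, also had the highest gastric pit list mean of its group, 8.37 against 6.37 to 6.92, and the highest mast cell list mean, 6.91 against 6.14 to 6.53. The part of these cells in the Retnlb value was not tested.

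Retnla, a macrophage and stromal product of type 2 inflammation, lies beside Retnlb on chromosome 16 with no annotated protein-coding gene between them. It had a lowest value of 4.74, a median of 5.32 and a highest value of 7.16 in tumors. Adjacent replicates 1 to 5 had 5.74, 6.74, 4.64, 6.15 and 5.02, and wildtype replicates 1 to 3 had 7.53, 5.65 and 6.22. The groups overlapped widely. The difference between tumor and adjacent tissue was -0.11 ± 0.36 (SE, adjusted p = 0.874), with a 95% confidence interval from -0.89 to 0.67, and 3 of 5 pairs were positive. Tumor replicate 3 and adjacent replicate 2, the highest of their groups, come from the same mouse.

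Arg1, which splits arginine into ornithine and urea, had a lowest value of 6.30, a median of 6.51 and a highest value of 7.50 in tumors. Adjacent replicates 1 to 5 had 5.75, 6.08, 6.01, 5.89 and 6.19, and wildtype replicates 1 to 3 had 5.63, 6.27 and 6.38. Tumor replicates 4 and 6, at 7.50 and 7.34, stood above the other 4 tumors, and the nearest tumor and adjacent arrays were 0.11 apart. Arg1 rose by 0.77 ± 0.19 (SE, adjusted p = 0.00526) and was higher in 5 of 5 pairs. Within mouse IDs beginning with F the difference was 0.51, with an adjusted p of 0.0802.

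Il4ra encodes the receptor subunit that binds IL-4. Its lowest tumor value was 10.30, the median 10.95 and the highest 11.38. Adjacent replicates 1 to 5 had 10.31, 9.89, 10.36, 10.18 and 10.36, and wildtype replicates 1 to 3 had 10.34, 10.26 and 10.11. Only tumor replicate 3 lay within the range of normal tissue. Il4ra rose by 0.69 ± 0.12 (SE, adjusted p = 0.000419) and was higher in 5 of 5 pairs, by 0.42 to 1.02. Within mouse IDs beginning with F the difference was 0.61 and did not pass (adjusted p = 0.136).

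The cytokine genes lie together on chromosome 11 and varied little on these arrays. Over the 14 arrays Il4 ranged from 5.87 to 6.32, Il5 from 4.84 to 5.16 and Il13 from 6.57 to 7.22. The groups overlapped for all 3 genes. Il4 had a lowest value of 5.97, a median of 6.15 and a highest value of 6.23 in tumors, against 6.06, 5.87, 6.11, 5.995 and 6.32 in adjacent replicates 1 to 5. The Il4 difference was 0.05 ± 0.08 (SE, adjusted p = 0.709), with a 95% confidence interval from -0.12 to 0.22.

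Il13 had a lowest value of 6.64, a median of 6.84 and a highest value of 6.96 in tumors, against 6.57, 7.07, 6.90, 6.66 and 7.06 in adjacent replicates 1 to 5. The Il13 difference was -0.03 ± 0.09 (SE, adjusted p = 0.845), with an interval from -0.23 to 0.16. Il5 had a lowest value of 4.92, a median of 4.96 and a highest value of 5.07 in tumors, against 5.05, 4.89, 4.84, 4.86 and 5.12 in adjacent replicates 1 to 5. The Il5 difference was 0.03 ± 0.06 (SE, adjusted p = 0.804), with an interval from -0.10 to 0.16. No detection call accompanied the values, so whether these transcripts were above the array's background is unknown. A change in few cells may be below what RNA of mixed cells shows.

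Set against wildtype duodenum, tumors had more Il4ra, and none of the other 8 genes passed. Of the 9 genes 1 rose and 0 fell, where 14.1% of all genes passed, 9.65% rising and 4.48% falling, and the groups overlapped for 9 of 9, where 13.6% of all genes did not overlap. At an unadjusted p below 0.05 there were 3, Chil4, Arg1 and Il4ra, where 26.5% of all genes passed. Il4ra was higher by 0.67 ± 0.17 (SE, adjusted p = 0.0159). Without wildtype replicate 2 that p was 0.0678, and without wildtype replicate 3 it was 0.0892. Chil4 averaged 10.72 ± 1.40 (SD, n = 6) in tumors and 7.29 ± 3.97 (n = 3) in wildtype, and the difference of 3.42 ± 1.22 (SE) had an adjusted p of 0.0782.

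Wildtype replicate 1 decided the calls on Chil4 and Retnlb. Without it 3 of the 9 genes rose in tumors, where 22.7% of all genes passed and 15.6% rose. Chil4 was then higher by 5.72 ± 0.72 (SE, adjusted p = 0.000121), against 3.42 with all arrays. Retnlb was higher by 3.83 ± 0.52 (adjusted p = 0.000193), against 1.62 ± 1.10 (adjusted p = 0.398) with all arrays. Il4ra was higher by 0.72 ± 0.20 (adjusted p = 0.0175). Chil3 was higher by 1.61 ± 0.59 without that array (adjusted p = 0.0654), against 0.89 ± 0.60 (adjusted p = 0.395) with it. Within mouse IDs beginning with F, whose single wildtype array is replicate 1, Chil4, Chil3 and Retnlb had tumor minus wildtype differences of -1.89, -1.16 and -2.32, which restate that array's high values.

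For the remaining genes the comparison with wildtype gave differences of 0.65 ± 0.26 for Arg1 (adjusted p = 0.127), -0.96 ± 0.51 for Retnla (0.258), -0.25 ± 0.13 for Il13 (0.256), 0.02 ± 0.11 for Il4 (0.933) and -0.13 ± 0.09 for Il5 (0.406). These differences include wildtype replicate 1, the lowest wildtype array for Arg1 (5.63) and the highest for Retnla (7.53). Il4 signal in wildtype replicates 1 to 3 was 5.88, 6.13 and 6.30. Il13 signal was 6.87, 7.08 and 7.22, and Il5 signal was 5.14, 5.16 and 5.01.

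**Figure D3:**
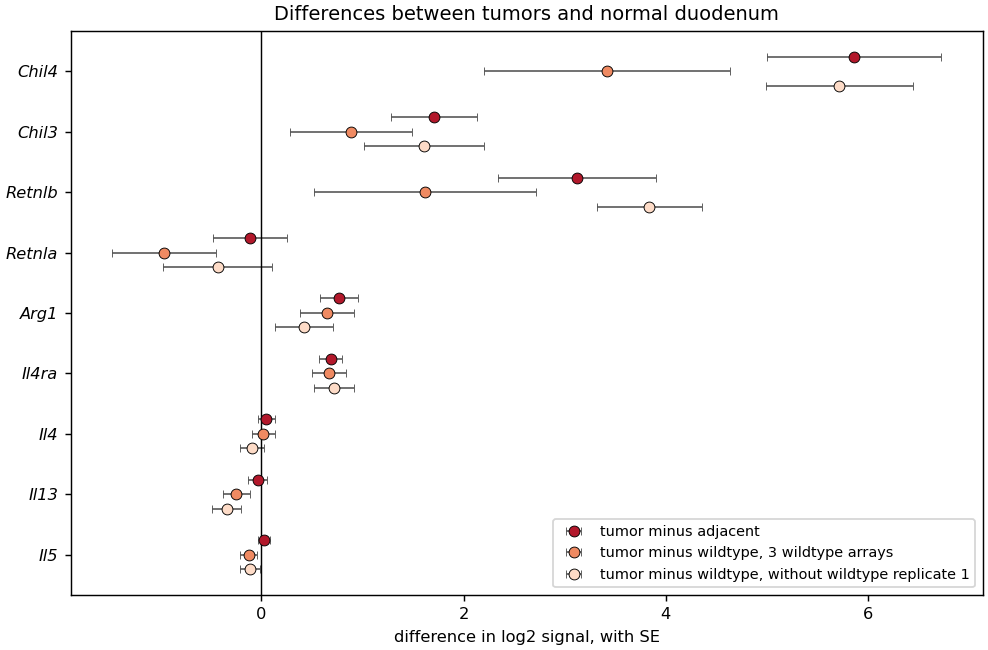
Differences in log2 signal (horizontal axis) for each gene, with SEs as whiskers, for tumor minus adjacent tissue, tumor minus wildtype and tumor minus wildtype without wildtype replicate 1. Chil4 is at 5.86, 3.42 and 5.72 and Retnlb at 3.13, 1.62 and 3.83, while Il13, the farthest below 0 of the cytokines, is at -0.03, -0.25 and -0.34.

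Between adjacent Lrig1-/- duodenum and wildtype none of the 9 genes passed, and 0 of all 19938 genes did (0%). At an unadjusted p below 0.05 limma gave 559 genes (2.8%) and 0 of the 9. The groups overlapped for 9 of 9 genes, where 2.12% of all genes did not overlap. Chil4 had a difference of -2.44 ± 1.25 (SE, adjusted p = 0.998), and without wildtype replicate 1 one of -0.14 ± 0.74 (adjusted p = 0.952). For Retnlb it was -1.51 ± 1.13 (adjusted p = 0.998) with all arrays and 0.70 ± 0.53 (adjusted p = 0.640) without that array, a change of sign.

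By mean level the order was tumor, wildtype, adjacent for Chil4, Chil3, Retnlb, Arg1 and Il4ra. The wildtype and adjacent means did not differ beyond their spread for any of these 5. Wildtype replicate 1, at 11.88 for Chil4, 7.48 for Chil3 and 11.98 for Retnlb, lifted the wildtype means of these genes. Wildtype replicates 2 and 3 were at 4.95 and 5.05 for Chil4, 5.46 and 5.18 for Chil3, and 5.32 and 5.35 for Retnlb. For Retnla the order was wildtype, adjacent, tumor, and the neighbours in it did not differ beyond their spread. The tumor and wildtype comparisons use the same tumors, and the adjacent tissue enters 2 of the 3 comparisons, so these are not separate tests.

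Of the other 7 measured genes of the chitinase family 4 rose as well. Of 9 measured genes of 10, 6 rose in tumors against adjacent tissue and 0 fell, where 19.1% of all genes rose and 12.6% fell. The median of the 9 was 0.52. Apart from Chil4 and Chil3 the largest was Chit1, chitotriosidase, an active chitinase, with a difference of 1.71 ± 0.23 (SE, adjusted p = 4.63e-05). Chit1 was at 7.97 ± 0.69 (SD, n = 6) in tumors, 6.26 ± 0.20 (n = 5) in adjacent tissue and 6.28 ± 0.11 (n = 3) in wildtype, and wildtype replicate 1 was at 6.33, with its group. Chil1, a chitinase-like protein of inflamed epithelium and neutrophils, rose by 0.86 ± 0.12 (adjusted p = 9.87e-05). The lysosomal chitobiase Ctbs rose by 0.52 ± 0.09 (adjusted p = 0.000498) and Chid1 by 0.52 ± 0.16 (adjusted p = 0.0229). Chia1, the acidic chitinase of the stomach, had a difference of 0.18 ± 0.13 (adjusted p = 0.370).

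Against wildtype 3 of these 9 genes rose and 0 fell, where 9.65% of all genes rose and 4.48% fell. Chit1 rose by 1.69 ± 0.32 (adjusted p = 0.00364) and Chil1 by 0.66 ± 0.18 (adjusted p = 0.0230). Ctbs rose by 0.45 ± 0.13 (adjusted p = 0.0313). In the resistin family Retnlb alone of 4 genes rose against adjacent tissue, where 19.1% of all genes rose. Retnlg, a product of neutrophils, had a difference of 0.56 ± 0.36 (adjusted p = 0.281), and the fat cell hormone Retn -0.54 ± 0.53 (adjusted p = 0.512). Retnlg was highest of all arrays in wildtype replicate 1, at 8.45.

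**Figure D4:**
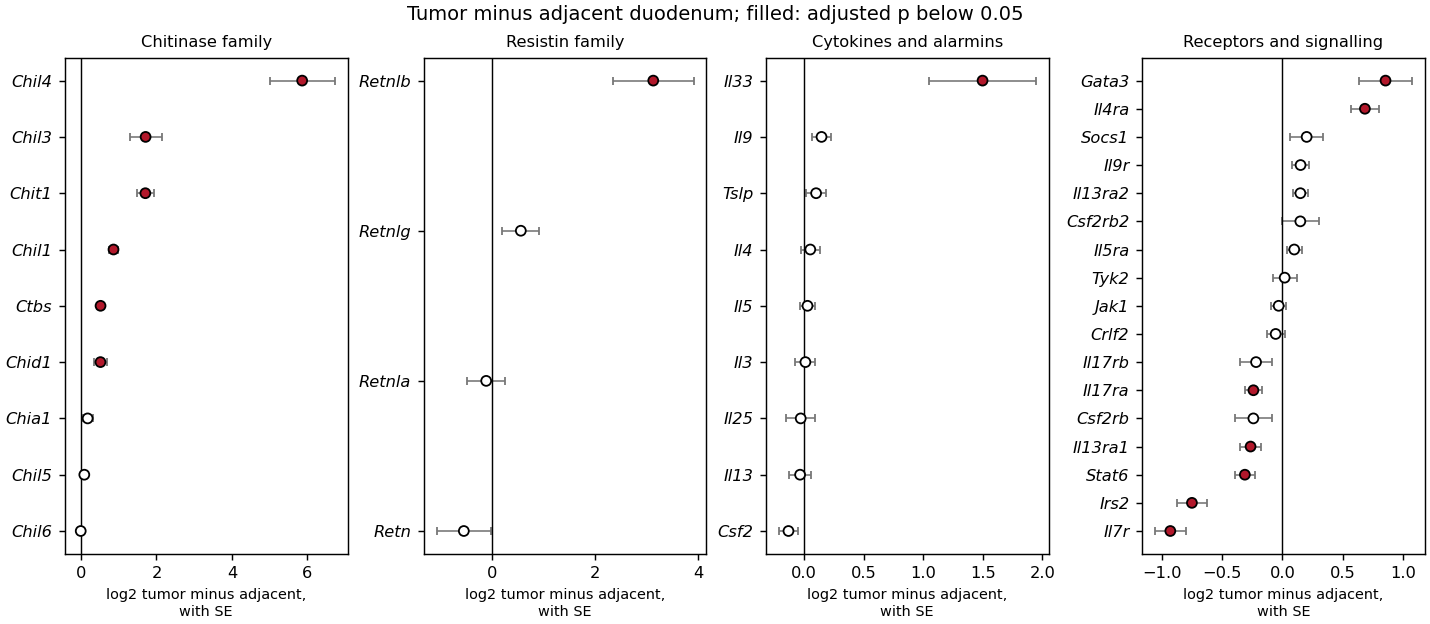
Tumor minus adjacent log2 differences with SEs for the chitinase family, the resistin family, type 2 cytokines and alarmins, and their receptors and signalling genes; horizontal scales differ between panels and filled points passed at an adjusted p below 0.05. Chil4 (5.86), Retnlb (3.13) and Il33 (1.50) lead the first 3 panels, and the fourth has 2 genes above 0 and 5 below 0 among those that passed.

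Upstream genes gave 1 increase. Of 9 measured cytokines and alarmins of 10, Il33 rose in tumors against adjacent tissue and 0 fell, with a median of 0.03. Over all genes 19.1% rose and 12.6% fell. Il33, an alarmin of stressed epithelium and stroma, rose by 1.50 ± 0.45 (SE, adjusted p = 0.0180). It was at 10.52 to 11.94 in tumors, against 8.06 and 9.28 in adjacent replicates 1 and 2, the adjacent arrays with acinar transcripts, and 10.32 to 10.57 in the other 3. In wildtype replicates 1 to 3 it was at 10.50, 10.44 and 7.98, so the wildtype arrays with acinar transcripts, replicates 1 and 3, went both ways. Against wildtype the Il33 difference was 1.65 ± 0.63 (SE, adjusted p = 0.103). The part of acinar tissue in the Il33 differences was not tested. Il25, the tuft cell alarmin, had a difference of -0.03 ± 0.12 (adjusted p = 0.902) and Tslp 0.10 ± 0.08 (adjusted p = 0.423).

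Among receptors and signalling genes 2 of 17 measured of 20 rose and 5 fell, with a median of -0.03. Over all genes 19.1% rose and 12.6% fell. Gata3, the transcription factor of type 2 lymphocytes, rose by 0.86 ± 0.22 (SE, adjusted p = 0.00695) and was at 8.93 in tumor replicate 4 but 7.08 in tumor replicate 3, within the adjacent range of 6.92 to 7.18. Il7r, a receptor of lymphocytes, fell by 0.93 on the log2 scale (SE 0.13, adjusted p = 6.90e-05), the insulin receptor substrate Irs2 fell by 0.75 (SE 0.12, adjusted p = 0.000303) and Stat6 fell by 0.31 (SE 0.08, adjusted p = 0.00804). Il13ra1, which pairs with Il4ra to bind IL-13, fell by 0.26 (SE 0.08, adjusted p = 0.0278). Against wildtype Il4ra was the only one of the 17 to rise and 0 fell, where 9.65% of all genes rose and 4.48% fell.

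Lists of arginine use, macrophage and epithelial genes had members that rose and members that fell against adjacent tissue, where 31.7% of all genes passed. Of 9 measured arginine-use genes of 10, Arg1 rose and 4 fell, with a median of -0.30. The urea cycle gene Otc fell by 2.09 (SE 0.23, adjusted p = 1.05e-05) and the mitochondrial arginase Arg2 by 1.05 (SE 0.14, adjusted p = 5.25e-05). The nitric oxide synthase Nos2 fell by 0.97 (SE 0.32, adjusted p = 0.0312). Against wildtype Otc and Arg2 fell, and Nos2 did not pass (adjusted p = 0.119). Nos2 was at 6.87, 9.96 and 8.12 in wildtype replicates 1 to 3. Enterocyte genes fell too against adjacent tissue (11 of 12), and the part of enterocytes in these falls was not tested. Of 14 genes of alternatively activated macrophages 2 rose and 3 fell, a share near that of all genes, with a median of -0.05. The chemokine Ccl8 rose by 0.53 ± 0.18 (SE, adjusted p = 0.0323) and F13a1 by 0.49 ± 0.15 (adjusted p = 0.0242), while the lectin Cd209a fell by 1.44 (SE 0.27, adjusted p = 0.000852), Pdcd1lg2 by 0.53 (SE 0.08) and Ccl22 by 0.45 (SE 0.10). Of 8 measured epithelial IL-13 targets of 12, 4 rose and 1 fell, with a median of 0.08. Muc5ac, which is also on the gastric pit list, rose by 3.45 ± 1.10 (adjusted p = 0.0265), the goblet cell factor Spdef by 1.97 ± 0.26 (adjusted p = 4.88e-05) and Agr2 by 1.19 ± 0.14 (adjusted p = 2.09e-05), while the goblet and Paneth cell lectin Itln1 fell by 1.47 (SE 0.27, adjusted p = 0.000701).

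Lists of cell type markers differed in how many members passed against adjacent tissue, where 19.1% of all genes rose and 12.6% fell. Gastric pit cell genes rose in 8 of 8 against adjacent tissue, and the list mean was 12.0 to 13.8 in tumors, 6.37 to 8.37 in adjacent tissue and 6.81, 7.22 and 13.4 in wildtype. Of 11 mast cell genes 7 rose and 0 fell. Their list mean was 7.62 to 8.38 in tumors, 6.14 to 6.91 in adjacent tissue and 6.12, 6.26 and 7.86 in wildtype. The mast cell protease Mcpt2 rose by 5.85 ± 0.68 (SE, adjusted p = 1.56e-05), Mcpt1 by 4.46 ± 0.72 and Mcpt4 by 3.22 ± 0.33. Both lists and Chil4, Chil3 and Retnlb were high in the same 7 arrays, the 6 tumors and wildtype replicate 1, and the part of these cells in the differences of the 3 genes was not tested.

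Of 10 macrophage genes 7 fell and 1, Cd14, rose against adjacent tissue, where 12.6% of all genes fell and 19.1% rose. The list mean was 8.61 to 9.07 in tumors, 9.32 to 9.79 in adjacent tissue and 9.07 to 9.18 in wildtype. Mertk, an uptake receptor found on resident macrophages, fell by 2.46 (SE 0.19, adjusted p = 9.74e-07) and Csf1r fell by 1.02 (SE 0.17, adjusted p = 0.000391). In adjacent tissue Mertk was at 11.66 ± 0.35 (SD, n = 5) and Csf1r at 9.44 ± 0.55. Which cells gave the Mertk signal was not tested. Against wildtype 2 of the 10 macrophage genes fell and 1 rose, where 4.48% of all genes fell and 9.65% rose. Of 10 neutrophil genes 5 rose and 0 fell. Their mean was 6.53 to 7.10 in tumors, 6.10 to 6.35 in adjacent tissue and 6.30 to 6.60 in wildtype. Ltf led with 2.83 ± 0.26 (SE, adjusted p = 2.79e-06), and the next was Cxcr2 with 0.98 ± 0.30 (adjusted p = 0.0226). Ltf was also at 8.84 in wildtype replicate 1. When set against wildtype, 1 of the 10 neutrophil genes rose and 0 fell. Of 8 measured eosinophil genes of 11, 0 passed, with 8 not passing and a median of 0.01. The eosinophil peroxidase Epx was at 5.72 to 6.12 in tumors, 5.74 to 6.29 in adjacent tissue and 5.53 to 6.05 in wildtype. Of 10 measured Th2 and ILC2 genes of 11, Gata3 rose and 2 fell, Il7r and Cd4, where 31.7% of all genes passed.

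**Figure D5:**
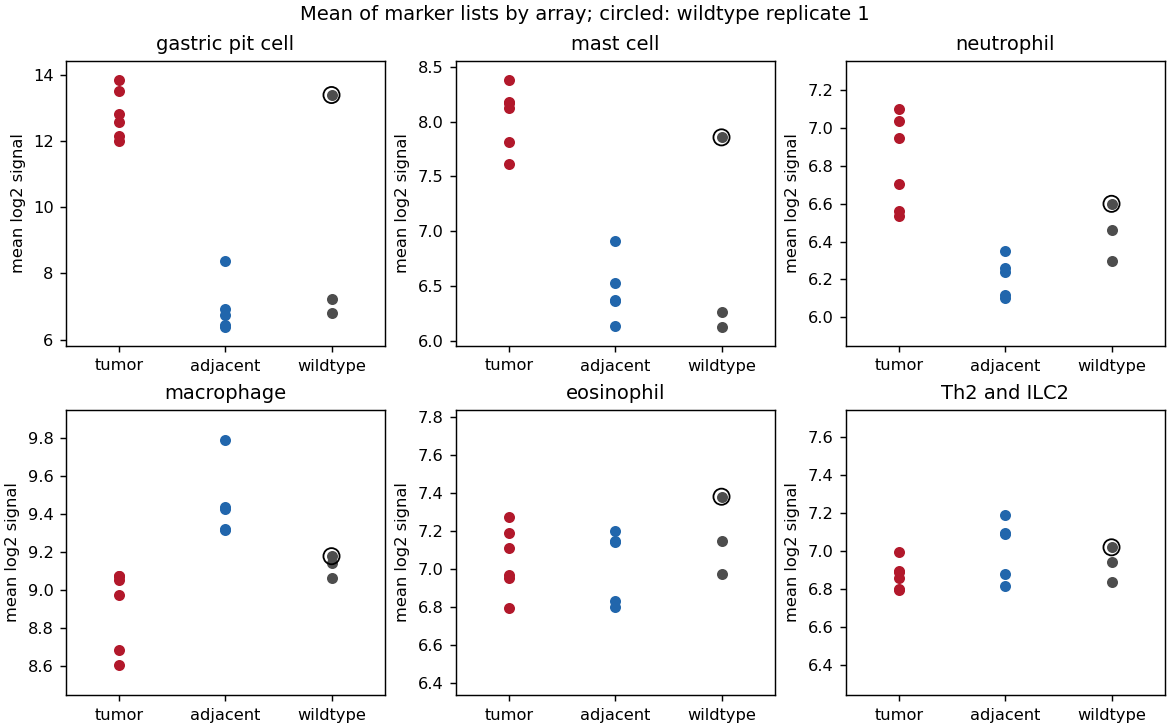
Mean log2 signal of 6 marker lists (vertical axes, each with its own scale) on every array by tissue, with wildtype replicate 1 circled. The gastric pit and mast cell lists place wildtype replicate 1, at 13.4 and 7.86, within the tumors' range, and the macrophage list is lower in every tumor than in every adjacent sample.

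Genes most alike in pattern were taken by Pearson correlation over the 14 arrays, for the 4 of the 9 genes that ranged over at least 2 log2 units. The arrays share 5 mice and fall into separate tissues, so r describes these arrays only. For Chil4 they were Atp6v0d2, a proton pump subunit (r = 0.988), Fam221a (0.967) and the claudin Cldn18 of the stomach lining (0.966), and 288 genes in all had r above 0.9. For Chil3 they were Ttc6 (0.936), Lonrf1 (0.930) and Tcaf2 (0.925), with 12 genes above 0.9. For Retnlb they were St3gal6 (0.976), Stn1 (0.975) and Plekha3 (0.966), with 71 above 0.9. For Retnla they were Banf2 (0.838), Enkur (0.816) and Eda (0.812), with 0 above 0.9.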

How the data were processed

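RNA of 6 tumors, 5 adjacent and 3 wildtype duodenal samples was measured. The deposited table holds 35556 rows by 14 arrays as log2 signal, from 2.87 to 14.8; the unit was read from the values. Affymetrix Expression Console 1.1 and mm9 are named, per the submitters' processing notes. No source used here gives the background correction or normalization. Array medians were 7.11 to 7.29, and no detection calls came with the values.

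A single symbol was given to 21789 rows, updated by gene identifier through a table of GRCm38.p6, used for names and neighbours. For 999 genes with several rows the brightest was used, leaving 19938 genes, with no filter on low signal. limma 3.58.1 in R 4.3.3 fitted group means to all arrays with mouse as a random block (correlation 0.334), two-sided, adjusted by Benjamini-Hochberg at 0.05. The pairing comes from the mouse ID in the labels; deviations from group means correlated at 0.225 on average within a mouse, and at -0.03 in 1 of 5 pairs. The fit was tested on simulated data. Promoter windows are RefSeq's (250 bases before to 50 after a start). The number of arrays limits the precision.

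The genes and lists were chosen with earlier results of these data known. Named genes are the 9, up to 3 per list and direction that passed against adjacent tissue, and 3 of like pattern; Chil1, Ctbs, Chid1, Chia1, Retnlg, Retn, Il25, Tslp, Il13ra1 and Epx were named after their values were seen. Acinar arrays are those with an acinar list mean over 10. Alternatives covered scaling, filter, block, weights, rows per gene, arrays left out and mouse ID letter.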

Additional observations from a re-analysis of the deposited data

Results flagged for a closer look

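Retnla was at 7.16 in tumor replicate 3, far above the next tumor at 5.58, with 6 tumors compared. The adjacent tissue of the same mouse was the highest of its group, at 6.74. Of 18 groups of arrays examined for a far sample (9 genes in tumor and in adjacent tissue) this was the single case, and chance gives about 1 in 20.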

How the results depend on the processing

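The increase of Chil4 against adjacent tissue passed under all 28 alternatives (5.09 to 6.54; adjusted p 4.66e-07 to 0.0233). Retnlb, Chil3 and Il4ra passed in 27 and Arg1 in 26. With only the acinar-carrying normal arrays (2 adjacent, 2 wildtype), 2 of the 9 genes passed against adjacent tissue and 0 against wildtype: Retnlb was at 2.49, Chil3 1.48 and Arg1 0.74, with 2181 and 504 genes in all. Within ID letter F it was 3 of 9 against adjacent tissue and 0 against wildtype (1719 and 14 genes), and 3 fell in adjacent tissue against wildtype replicate 1 (73 genes); both fits against wildtype rest on that array alone and restate its values. Fewer samples enter these fits. Against wildtype 4 of 9 passed with array weights (6939 genes), 4 within letter B (3700), 2 without the acinar-carrying arrays (2292), 2 with the letter as a term (3009) and 0 with only the groups compared (1939). Adjacent against wildtype gave 1 gene with quantile normalization, with a filter at a mean of 6 (which drops Retnla and Il5) and with array weights. Leaving out each array in turn gave 5232 to 6475 genes and 5 of 9 against adjacent tissue, 940 to 4526 genes and 0 to 3 of 9 against wildtype (0 without wildtype replicate 2 or 3, with 940 and 1090 genes), and 0 to 1 genes between the normal groups. Without the replicate block 5 of 9 passed against adjacent tissue (4811 genes), and 5 with the mouse as a fixed block (5575 genes); neither changed a call on the 9 genes.

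Signs turned for these differences, none of which passed in the turned setting. Tumor minus adjacent: Retnla 0.15 and Il4 -0.0334 without the acinar-carrying arrays, Il13 0.0064 with them only and 0.0067 within F, Il4 -0.0599 within B; leaving out single arrays, Retnla -0.36 to 0.0361, Il13 -0.11 to 0.022, Il4 -0.0069 to 0.11 and Il5 -0.0033 to 0.0716. Tumor minus wildtype: Il4 -0.0176 with array weights, -0.0009 without the acinar-carrying arrays, -0.13 within B and -0.0867 to 0.12 leaving out single arrays; within F Chil3 -1.16, Chil4 -1.89 and Retnlb -2.32. Adjacent minus wildtype: Il4 0.055 with quantile normalization, 0.0281 centred on medians, 0.0325 without the acinar-carrying arrays, 0.0781 within F and -0.14 to 0.068 leaving out single arrays; Il4ra 0.0441 centred, 0.0209 with array weights, 0.0021 with the letter, 0.11 within B and -0.0758 to 0.0363 leaving out single arrays; Retnlb 0.33 without the acinar-carrying arrays, 0.15 within B and -2.62 to 0.70 leaving out single arrays (0.70 without wildtype replicate 1); Arg1 0.30 within F and -0.35 to 0.0232 leaving out single arrays. The causes were not tested.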

Other observations

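Tuft cell genes, which mark the epithelial cells that sense worms, rose in 2 of 9 measured of 10 against adjacent tissue and fell in 0. Their median was -0.01, and over all genes 19.1% rose and 12.6% fell. Avil rose by 2.80 ± 0.32 (SE, adjusted p = 1.35e-05) and Alox5ap, which serves leukotriene synthesis, by 1.20 ± 0.33 (adjusted p = 0.0120). Among enterocyte genes 11 of 12 fell and 0 rose, led by Lct, which fell by 4.86 (SE 0.42). Of 9 measured pancreatic acinar genes of 11, 0 passed, with a median of -1.96.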
